A study of Mus musculus with 12 samples.

Results

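The genes described here encode the nuclear subunits of mitochondrial respiratory complexes III and IV, of complex V (ATP synthase) and cytochrome c, the small protein that carries electrons between complexes III and IV. Members were taken by symbol from a list of 37 genes: 9 of complex III, Cycs for cytochrome c, 12 of complex IV and 15 of complex V. All 37 were found among the 24061 symbols of the deposited tables, and all 37 passed the filter on low counts both with 12 and with 10 libraries. The tables come from the hearts of 12 C57BL/6J males, 2 to 4 months old and fed chow. Of these, 6 were HKII+/-, heterozygous for hexokinase II, and 6 were HKII+/+, wild type at that gene. No other allele or agent is named for either group, and the labels do not say how the HKII+/- allele was made. Hexokinase II, the product of Hk2, phosphorylates glucose, and part of it sits on the mitochondrial surface. The submitters marked the library HKII+/- replicate 11 and the library HKII+/+ replicate 13 as possible outliers. The counts of called members and the isoform ratios are given with all 12 libraries (n = 6 per genotype) and with the 10 unmarked libraries (n = 5 per genotype). Several other comparisons are given with the 10 unmarked libraries alone.

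In the inner mitochondrial membrane, complex III passes electrons from ubiquinol to cytochrome c, and complex IV passes them from cytochrome c to oxygen. Both pump protons, and complex V uses the returning protons to make ATP, which the beating heart consumes continuously. Complex IV is built with tissue-specific versions of several small subunits, and heart and skeletal muscle use their own forms of subunits 6a, 7a and 8. The mitochondrially encoded subunits were not analysed here.

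Count totals ran from 17263209 to 51556592 per library. Hk2, on chromosome 6, measured 255.7, 266.9, 272.6, 312.5 and 354 CPM (counts relative to the library total after that total is scaled by its TMM factor, a correction for differences in RNA composition) in the unmarked HKII+/- libraries and 471, 485.5, 522, 524.1 and 542.5 CPM in the unmarked HKII+/+ libraries. The groups did not overlap, with a log2 fold change of -0.80 (SE 0.09) and an adjusted p of 0.0165 in edgeR's quasi-likelihood test. This adjusted p rose above 0.05 when any of 7 of these 10 libraries was left out. With all 12 libraries the log2 fold change was -0.66 (SE 0.19, unadjusted p = 0.0054, adjusted p = 0.99999 in edgeR), so Hk2 was not called in that fit. The library labelled HKII+/- replicate 11 had 568.2 CPM and HKII+/+ replicate 13 had 652.6 CPM, both above every unmarked library. Their place depends on the scaling: as CPM of the plain library total, Hk2 was 446.5 in the library labelled HKII+/- replicate 11, above the 271.5 to 351.2 of the other HKII+/- libraries and below the 493.7 to 578.7 of the 6 HKII+/+ libraries, and it was 495.9 in HKII+/+ replicate 13. Against the mean of the unmarked libraries, 45.9% of all tested genes lay more than 2-fold off in the library labelled HKII+/- replicate 11 and 32.1% in HKII+/+ replicate 13, against 0.0354% to 1.6% in each other library. All 6 cardiomyocyte markers were tested, and their summed level was 60825 to 84076 CPM in the unmarked libraries, 182786 CPM in the library labelled HKII+/- replicate 11 and 197783 CPM in HKII+/+ replicate 13. The summed level of 6 atrial markers was 338.5 CPM in HKII+/- replicate 19 and 436.7 CPM in HKII+/- replicate 22, against 2512 to 7239 CPM in the other 8 unmarked libraries and 17007 CPM in the library labelled HKII+/- replicate 11. In HKII+/- replicate 22, Myl7 was at 0.469 CPM, Sln at 0.0782 CPM and Bmp10 at 0.0196 CPM, and in HKII+/+ replicate 18 Bmp10 was at 0.

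3 sets of sequences are shown because the results below turn on the isoforms they belong to. Atp5g1, Atp5g2 and Atp5g3 encode the c subunit of the proton-driven ring of ATP synthase. They differ in the imported leader peptide, and the mature protein is the same. The last 108 bases of each coding sequence, from GENCODE vM21 transcripts of GRCm38 on the minus strand, follow, with capitals at the 29 positions where the 3 genes do not all share a base. They lie at chr11:96073104-96073211, chr15:102663014-102663121 and chr2:73908593-73908700, in coding exons.
Atp5g1: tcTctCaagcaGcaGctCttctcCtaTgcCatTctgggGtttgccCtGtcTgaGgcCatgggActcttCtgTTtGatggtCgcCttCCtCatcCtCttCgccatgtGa
Atp5g2: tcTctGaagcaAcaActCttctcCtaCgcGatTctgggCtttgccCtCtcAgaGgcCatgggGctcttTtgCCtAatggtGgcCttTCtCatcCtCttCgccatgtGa
Atp5g3: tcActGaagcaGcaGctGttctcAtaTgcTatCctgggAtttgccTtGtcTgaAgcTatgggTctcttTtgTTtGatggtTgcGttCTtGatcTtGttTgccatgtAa
Over the last 228 coding bases, Atp5g1 and Atp5g2 differed at 34 positions, Atp5g1 and Atp5g3 at 46, and Atp5g2 and Atp5g3 at 49. The longest run of identical bases in any of these pairs was 21, shorter than the 100-base reads.

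The promoters of the ubiquitous and the muscle form of subunit 8 and of Atp5g3 are given from RefSeq on GRCm38.p6, from 250 bases before the annotated start site to 50 after it. Of the 37 members, 28 matched a promoter entry. Capitals mark motif matches found by a search of both strands: the ETS letters CCGGAAGT, seen here as ACTTCCGG on the other strand, in Cox8a; the TATA box letters TATAAA in Cox8b; and in Atp5g3 a match to the NRF1 motif and the ERR letters TCAAGGTCA, seen here as TGACCTTGA. The windows are chr19:7217567-7217866, chr7:140900397-140900696 and chr2:73911277-73911576, all on the minus strand. Relative to the annotated start site, the matches begin at -6 and 31 in Cox8a and at 4 in Cox8b. In Atp5g3 they begin at 12 (NRF1) and -52 (ERR). The TATAAA letters of Cox8b thus lie downstream of the annotated start site, and their use as a TATA box was not tested.
Cox8a: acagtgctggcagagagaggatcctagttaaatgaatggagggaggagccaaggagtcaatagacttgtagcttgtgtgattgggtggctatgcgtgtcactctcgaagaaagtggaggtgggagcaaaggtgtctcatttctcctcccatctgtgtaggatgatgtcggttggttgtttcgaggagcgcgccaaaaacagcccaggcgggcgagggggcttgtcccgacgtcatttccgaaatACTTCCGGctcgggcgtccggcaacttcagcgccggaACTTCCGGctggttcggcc
Cox8b: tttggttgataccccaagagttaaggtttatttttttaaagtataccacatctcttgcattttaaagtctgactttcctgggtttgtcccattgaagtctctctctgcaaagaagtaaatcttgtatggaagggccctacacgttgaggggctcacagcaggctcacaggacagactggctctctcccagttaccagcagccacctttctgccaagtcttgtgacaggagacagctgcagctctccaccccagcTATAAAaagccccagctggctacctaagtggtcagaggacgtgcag
Atp5g3: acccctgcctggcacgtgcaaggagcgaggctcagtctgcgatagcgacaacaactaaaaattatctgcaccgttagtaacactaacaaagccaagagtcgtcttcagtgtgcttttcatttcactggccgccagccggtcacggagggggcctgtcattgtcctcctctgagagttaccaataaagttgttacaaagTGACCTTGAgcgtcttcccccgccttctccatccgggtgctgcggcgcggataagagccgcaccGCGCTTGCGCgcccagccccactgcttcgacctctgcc
The NRF1 motif was in 7 of the 28 members' windows (25%: Atp5c1, Atp5g2, Atp5g3, Atp5h, Atp5k, Atp5o and Uqcrc1), against 7.0% of 27025 genes with a window. The ETS letters were in 4 members (14.3%, against 4.31% of genes) and the YY1 letters AANATGGCG in 3 (10.7%, against 2.76%). The TATA box letters were in Cox8b and Atp5l (7.14%, against 15.7%), the ERR letters in Atp5g3 alone (3.57%, against 0.466%) and the MEF2 motif in Cox5b alone (3.57%, against 4.23%). None of these motifs overlapped another in the 3 windows printed.

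Members of all 3 complexes were well detected in these hearts, and their rank among all genes is not given here. Levels between genes are compared as CPM per kilobase of exon, averaged over the 10 unmarked libraries of both genotypes, with the SD over libraries. The median member had 612 CPM per kilobase, the 37 together took 2.97% to 3.39% of counts in each unmarked library, and the lowest member, Atp5l, still averaged 223.8 counts per library.

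In complex III, Cyc1, the cytochrome c1 that hands electrons to cytochrome c, was highest at 984 CPM per kilobase ± 227 (SD, n = 10). The core subunits Uqcrc1 and Uqcrc2 had 816 ± 75.3 and 490 ± 32.2 CPM per kilobase, and Uqcrfs1, the Rieske iron-sulfur protein, had 604 ± 37.6. The hinge protein Uqcrh (612 CPM per kilobase) and the small subunits Uqcrb (683), Uqcr11 (545), Uqcr10 (344) and Uqcrq (246 ± 22.2) completed the complex. The low place of Uqcrq depends on its exon length of 1521 bases, against 436 to 546 for Uqcrh, Uqcrb, Uqcr11 and Uqcr10. In CPM not divided by length, Uqcrq (374) was above Uqcrh (334), Uqcrb (346), Uqcr11 (238) and Uqcr10 (179). Cycs had 107 ± 9.81 CPM per kilobase over its long exons. Uqcrh and Uqcrfs1 did not differ beyond their spread over libraries, whereas Uqcrc2, Uqcr10 and Uqcrq lay apart by more than their SDs.

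In complex IV, Cox4i1, the common form of the regulatory subunit 4, was highest at 1783 ± 186 CPM per kilobase. It was followed by the muscle forms Cox6a2 (1340 ± 169) and Cox7a1 (1121 ± 115) and by Cox5a (970 ± 78.2), Cox6c (792 ± 59.5) and the muscle form Cox8b (791 ± 85.2). Cox6b1 had 697 CPM per kilobase, Cox5b 685, Cox7c 454 and Cox7b 425. The forms used in most tissues were lowest, with 298 ± 20.5 CPM per kilobase for Cox7a2 and 127 ± 7.25 for Cox8a. Cox6c and Cox8b did not differ beyond their spread, and neither did Cox6b1 and Cox5b.

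In complex V, the catalytic beta subunit Atp5b was highest of all members at 3228 ± 161 CPM per kilobase. The alpha subunit Atp5a1 had 2124 ± 155 CPM per kilobase, Atp5g3 1748 ± 188, Atp5h 1004 ± 84.8 and Atp5o, the stalk protein that confers oligomycin sensitivity, 991 ± 87.9. Between 829 and 472 CPM per kilobase lay Atp5g1, Atp5e (the epsilon subunit), Atp5j, Atp5c1 (the gamma rotor subunit), Atp5k, Atp5f1, Atp5d (the delta subunit) and Atp5j2. Atp5g2 had 81.9 ± 7.57 and Atp5l, a membrane subunit, 14.2 ± 2.13. Of the 100-base windows of the Atp5l and Atp5g2 transcripts, 61.3% and 86.4% also occur in other annotated genes, so their levels are uncertain. The next largest shares were 44.4% for Cox7c, 32.7% for Atp5h, 24.7% for Cycs, 15.8% for Uqcrb and 11.4% for Cox6c. Part of the exons of Uqcrc2, Cox4i1, Atp5f1, Atp5j, Cox6a2, Uqcrb and Atp5a1 overlaps another listed gene, and the strand setting of the counting is not given in the sources used here.

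**Figure D1:**
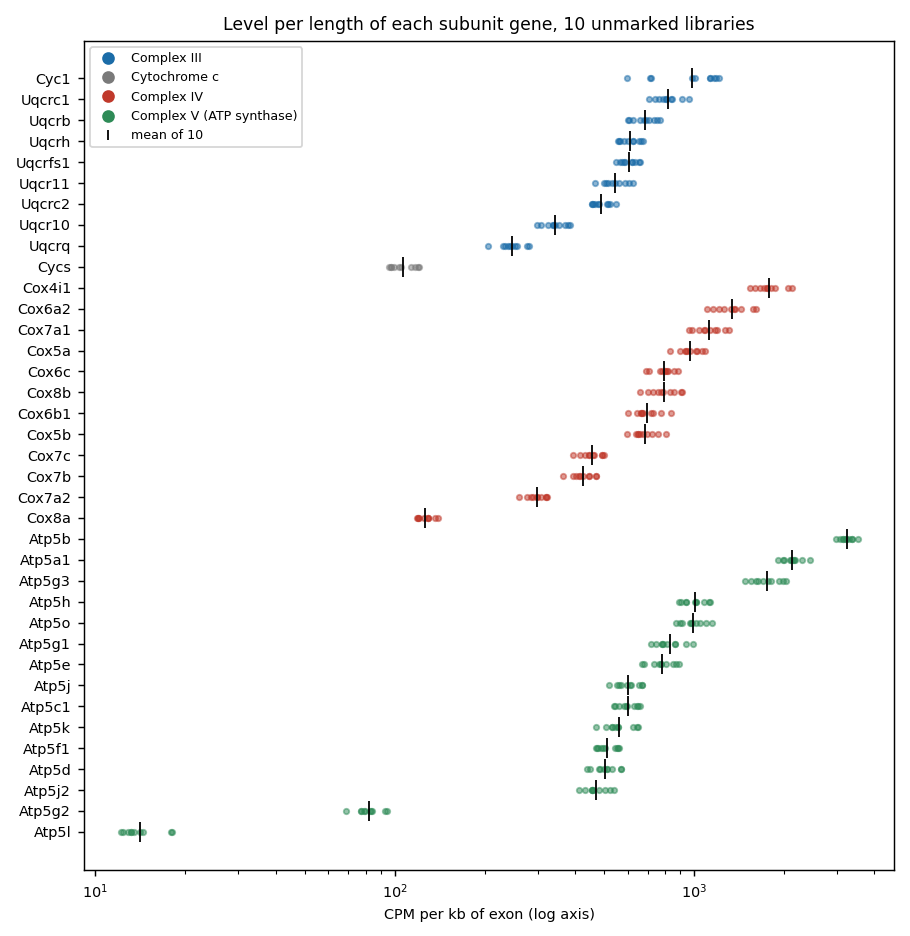
CPM per kilobase of exon (horizontal, log axis) for each of the 37 genes (rows, by complex), with a point for each of the 10 unmarked libraries and a bar at their mean. Atp5b is highest at 3228, Atp5l lowest at 14.2, and Cyc1 has the widest spread of the complex III genes.

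The heart used mainly the muscle forms of the complex IV subunits. Per length of exon, Cox6a2 made 87.3% to 91.2% of the sum of Cox6a2 and Cox6a1 in the 10 unmarked libraries, Cox7a1 made 76.3% to 80.4% of the sum with Cox7a2, and Cox8b made 84.8% to 87.6% of the sum with Cox8a. Cox4i1 made 99.5% to 99.7% of the sum with Cox4i2, the form known from lung, and Cox6b1 99.5% to 99.7% of the sum with Cox6b2, known from testis. Of the c subunit genes together, Atp5g3 made 65.7% ± 0.870 (SD, n = 10), Atp5g1 31.2% ± 0.814 and Atp5g2 3.09% ± 0.143, with the uncertainty for Atp5g2 given above.

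For none of 7 isoform ratios did the genotypes differ beyond the spread between libraries. In the unmarked libraries the log2 ratio of Cox6a2 to Cox6a1 counts was 3.48 ± 0.17 in HKII+/- and 3.39 ± 0.24 in HKII+/+ (SD, n = 5 each; difference 0.08, exact two-sided permutation p = 0.556). The differences were 0.05 for Cox7a1 over Cox7a2, 0.11 for Cox8b over Cox8a, -0.11 for Cox4i1 over Cox4i2, 0.23 for Cox6b1 over Cox6b2, 0.01 for Atp5g1 over Atp5g3 and 0.04 for Atp5g2 over Atp5g3. Adjusted over the 7 ratios, these exact permutation p-values were 0.644 to 0.889, and the smallest p these 252 splits allow is 0.00794. With all 12 libraries the differences ran from -0.23 (Cox6a2 over Cox6a1) to 0.26 (Atp5g2 over Atp5g3), with an adjusted exact permutation p of 0.851 for each.

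In both marked libraries, these ratios left the range of the others. Cox6a2 fell to 30.4% of its pair in the library labelled HKII+/- replicate 11 and to 59.8% in HKII+/+ replicate 13. Cox7a1 stood at 88.1% and 87.0% of its pair, and Atp5g1 at 49.9% and 46.3% of the c subunit genes. Cox8b was low at 73.5% of its pair in the library labelled HKII+/- replicate 11 but at 87.8% in HKII+/+ replicate 13. These are single libraries, described without a test.

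**Figure D2:**
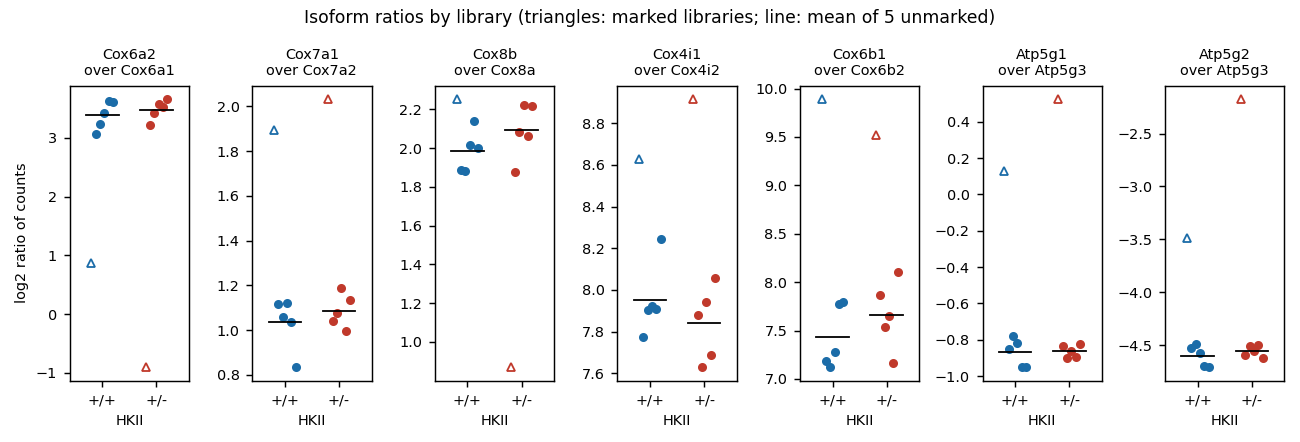
Log2 ratio of counts (vertical) for the 7 isoform pairs, by genotype (HKII+/+ blue, HKII+/- red), with a filled point for each unmarked library, an open triangle for each marked library and a line at the mean of the 5 unmarked libraries. The unmarked genotypes overlap in every pair, and both triangles lie outside the range of the filled points, in opposite directions for Cox8b over Cox8a.

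Lower Hk2 in HKII+/- hearts came with no called change of a complex III, IV or V subunit. With the 10 unmarked libraries, 0 of 37 members were called at an adjusted p below 0.05, where 0.00707% of all 14139 genes tested were called (Hk2 alone). At an unadjusted p below 0.05 stood 1 member, Cyc1, which was higher in HKII+/-, against 2.8% of all genes in either direction and 1.51% that were higher. Groups overlapped for 37 of 37 members, against 0.474% of genes without overlap. DESeq2 and limma voom with quality weights also called 0 members, with 1 member each at an unadjusted p below 0.05 (Cyc1 and Cox8a, respectively). Of the members, 24 had a higher and 13 a lower mean in HKII+/-, with a median log2 fold change of 0.01 against -0.00462 over all genes, of which 52.7% were lower.

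With the 10 unmarked libraries and no covariate, these values place tight limits on most members. Leaving aside Cyc1 and Atp5l, the 35 other log2 fold changes ran from -0.07 to 0.07 with a median SE near 0.08, and their 95% intervals together spanned 85.7% to 123% of the HKII+/+ level. By complex, 6 of 9 genes of complex III were higher (median 0.00334), as were 8 of 12 of complex IV (median 0.02) and 10 of 15 of complex V (median 0.02). Cycs had a log2 fold change of -0.04 (SE 0.08). For Atp5b, the unmarked values were 5572 to 6600 CPM (median 5887) in HKII+/- and 5917 to 6325 CPM (median 6034) in HKII+/+, so the HKII+/+ range lay inside that of HKII+/-.

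With all 12 libraries, 0 of 37 members were called, where 0% of 14107 genes were, and 0 were at an unadjusted p below 0.05, against 0.262% of all genes. Hk2 itself was not called in this edgeR fit, nor by DESeq2 (adjusted p = 0.99996). With limma voom and quality weights Hk2 was called, at a log2 fold change of -0.88 and an adjusted p of 7.66e-05. Groups overlapped for all 37 members, against 0.0213% of genes without overlap. DESeq2 also called 0 members with 0 at an unadjusted p below 0.05, and limma voom with quality weights called 0 members with 2 below it. The members' log2 fold changes ran from -0.17 (Cox8b) to 0.33 (Cyc1), with a median of -0.07 against -0.00127 over all genes, and 29 of 37 were lower in HKII+/-, against 50.5% of genes. The median SE rose to 0.22. Without the library labelled HKII+/- replicate 11 the count of lower members was 17.

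**Figure D3:**
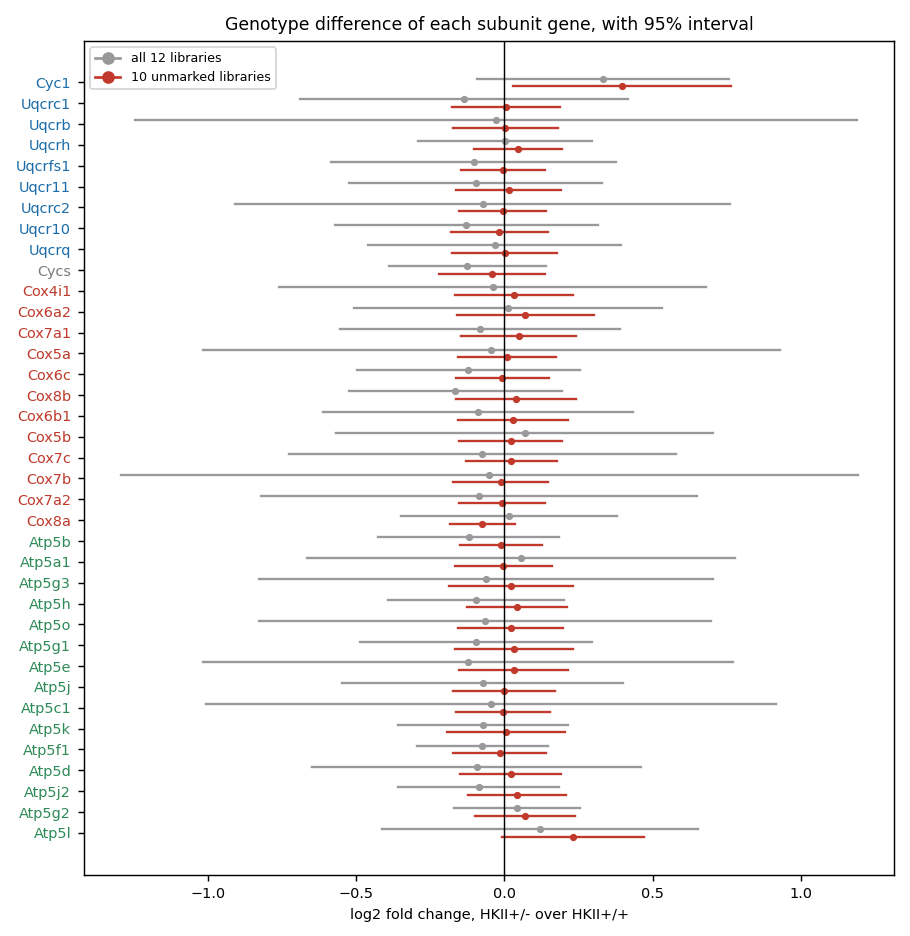
Log2 fold change, HKII+/- over HKII+/+ (horizontal), with its 95% interval, for each of the 37 genes (rows), from all 12 libraries (grey) and from the 10 unmarked ones (red). The red intervals are narrower, and 36 of 37 of them span 0, with Cyc1 the exception.

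Cyc1 (chromosome 15 from 76343523 to 76346260, plus strand, GRCm38) had the largest SD within genotype of the 37 members over the 10 unmarked libraries. With all 12 libraries its SD of 0.34 on the log2 scale was below that of Cox7b (1.44) and Uqcrb (1.39). It measured 1770, 1492, 1721, 1802 and 1713 CPM in HKII+/- replicates 12, 16, 19, 20 and 22. In HKII+/+ replicates 14, 15, 17, 18 and 21 it measured 904, 1081, 1536, 1843 and 1092 CPM. The 3 low libraries were all HKII+/+, while replicates 17 and 18 reached the HKII+/- values, so the groups overlapped.

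The log2 fold change of Cyc1 was 0.40 (SE 0.17, 95% interval 0.03 to 0.76), with an unadjusted p of 0.0364 and an adjusted p of 0.9999 in edgeR's quasi-likelihood test. Leaving out each library in turn gave 0.29 (without HKII+/+ replicate 14) to 0.56 (without HKII+/+ replicate 18). The marked libraries had 2073 CPM (labelled HKII+/- replicate 11) and 1945 CPM (HKII+/+ replicate 13), and with all 12 the log2 fold change was 0.33 (SE 0.19, unadjusted p = 0.114 in edgeR). In HKII+/+ replicates 14, 15 and 21, Cyc1 deviated by -0.69, -0.43 and -0.41 on the log2 scale from its mean over the unmarked libraries. The median deviation of the 9 complex III genes there was smaller, at -0.05, -0.08 and 0.01. Above their means in these libraries lay 1, 0 and 5 of the 9. The SD within genotype of the other 8 was 0.10 to 0.14 on the log2 scale, against 0.31 for Cyc1.

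Atp5l (chromosome 9) had the next largest difference. It measured 6.58, 6.91, 9.16, 7.22 and 9.29 CPM in HKII+/- replicates 12, 16, 19, 20 and 22, and 6.33, 6.75, 6.75, 7.39 and 6.24 CPM in HKII+/+ replicates 14, 15, 17, 18 and 21. Replicates 19 and 22 alone lay above all HKII+/+ libraries, and they are also the libraries low in atrial markers. The log2 fold change was 0.23 (SE 0.11, unadjusted p = 0.0587, adjusted p = 0.9999 in edgeR), and 0.11 with the atrial markers as a covariate.

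The smallest SDs within genotype over the 10 unmarked libraries were those of Cox8a (0.08 on the log2 scale), Atp5b (0.08) and Uqcrfs1 (0.10). With all 12 libraries Atp5f1 (0.12) and Atp5g2 (0.13) were lower than Cox8a (0.28). Cox8a measured 64.5 to 70.3 CPM (median 65.9) in unmarked HKII+/- libraries and 65.4 to 76.3 CPM (median 70.2) in HKII+/+ ones, which overlap. Its log2 fold change was -0.07 (SE 0.05, unadjusted p = 0.169 in edgeR).

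In most of the unmarked libraries, members of all 3 complexes lay on the same side of their means. In HKII+/+ replicate 18 and in HKII+/- replicates 19 and 22, all 37 members lay above their mean over the unmarked libraries, and in HKII+/+ replicate 15 all 37 lay below it. In HKII+/- replicate 12, 36 of 37 lay below, with Cyc1 the exception, and 2 of 37 lay above in HKII+/- replicate 16 and 3 of 37 in HKII+/+ replicate 14. The other 3 were mixed, with 12 above in HKII+/- replicate 20, 28 in HKII+/+ replicate 17 and 16 in HKII+/+ replicate 21. Over all genes tested, 47.5% to 52.6% lay above their mean in each unmarked library. The members' median deviation on the log2 scale was -0.20 in HKII+/- replicate 12, -0.08 in 16, 0.16 in 19, -0.03 in 20 and 0.17 in 22. In HKII+/+ replicates 14, 15, 17, 18 and 21 it was -0.04, -0.10, 0.03, 0.09 and -0.01. Both genotypes therefore held libraries above and below the mean, and HKII+/- held the lowest and the highest.

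Nuclear genes of complex I shifted as well, with median deviations of -0.19 in HKII+/- replicate 12 and 0.17 in HKII+/- replicate 22. Of 35 tested complex I genes, 21 were higher and 14 lower in HKII+/- with 10 libraries (median 0.00275), and all 4 of complex II were lower (median -0.02), with 0 called in either. The 2 highest libraries, HKII+/- replicates 19 and 22, are those low in all 6 atrial markers, and their summed ventricular markers were 11681 and 12304 CPM, against 8128 to 10907 CPM in the other unmarked libraries. In HKII+/- replicates 12, 16, 19 and 22 the cardiomyocyte markers shifted in the same direction as the members. Their median deviation was -0.18 in HKII+/- replicates 12 and 16, 0.16 in HKII+/- replicate 19 and 0.27 in HKII+/- replicate 22. Values of these markers in each of the other unmarked libraries are not given here. In whole-heart RNA, fewer cells of a type and less RNA per cell cannot be told apart, and the part of the atrial or cardiomyocyte share in this result was not tested beyond the values that follow.

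The direction count with 10 libraries changed with the libraries included. The count of 13 lower members became 35 with the atrial markers as a covariate (median -0.06) and 35 without HKII+/- replicates 19 and 22 (median -0.10, 3 against 5 libraries, an alternative chosen after seeing the data). In the latter, 4 members had an unadjusted p below 0.05 and 0 were called in edgeR. Over all genes in that fit, 1010 of 14378 were below 0.05 in edgeR, 1 was called and 51% were lower in HKII+/-. Leaving out a single library gave 2 (HKII+/- replicate 12), 3 (HKII+/- replicate 16), 2 (HKII+/+ replicate 18), 8 (HKII+/+ replicate 21), 24 (HKII+/+ replicate 15), 29 (HKII+/- replicate 22) or 30 (HKII+/- replicate 19).

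**Figure D4:**
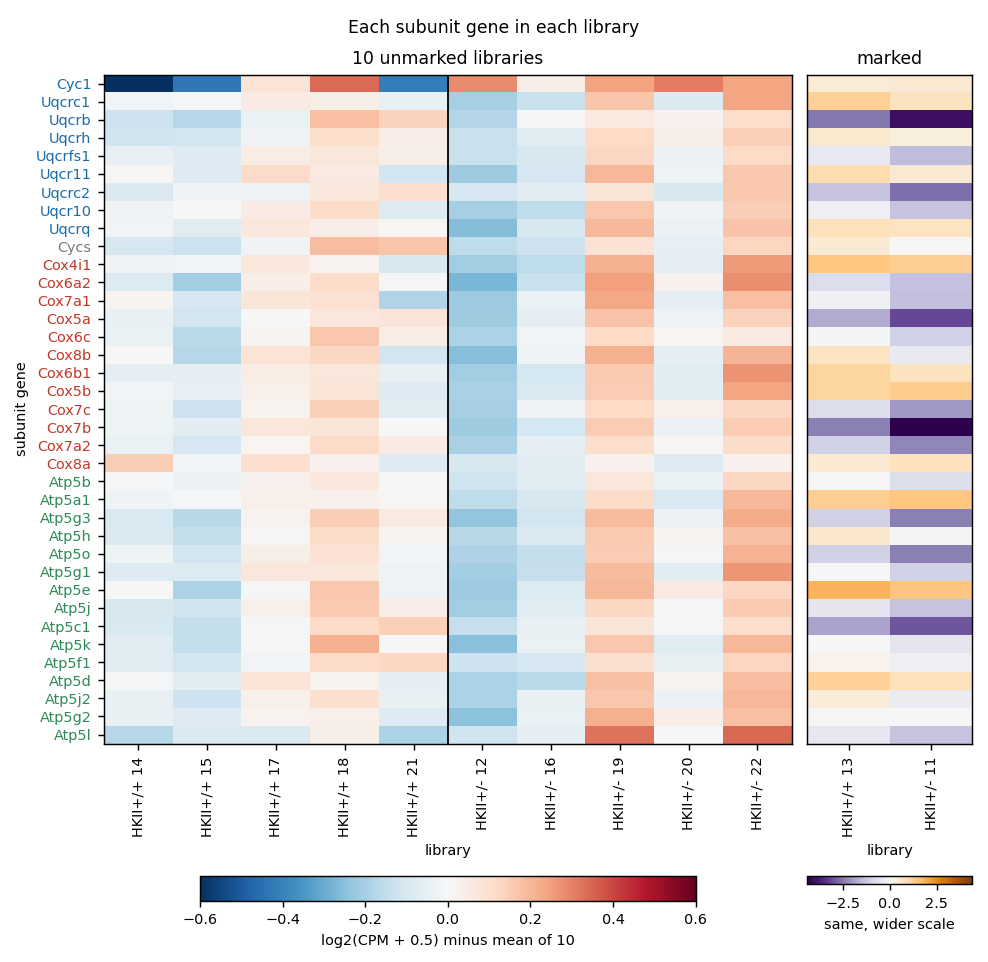
Log2(CPM + 0.5) of each of the 37 genes (rows, by complex) minus its mean over the 10 unmarked libraries, in each library (columns), with a wider colour scale for the 2 marked libraries on the right. Medians of the unmarked columns run from -0.20 (HKII+/- replicate 12) to 0.17 (HKII+/- replicate 22). The columns of HKII+/- replicate 20 and HKII+/+ replicates 17 and 21 and both marked columns hold both colours, and the other 7 are mostly of a single colour.

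In the marked libraries the members split apart in place of moving together. In the library labelled HKII+/- replicate 11, 17 of 37 members were more than 2-fold below their unmarked mean and 4 more than 2-fold above it, with deviations from -4.36 to 1.48 on the log2 scale. In HKII+/+ replicate 13, 8 were more than 2-fold below and 7 more than 2-fold above, from -2.56 to 1.84. As shares, 56.8% and 40.5% of members were more than 2-fold off in these libraries, against 45.9% and 32.1% of all tested genes. Much of this split was thus shared by genes at large. The SD over members was 1.55 and 1.07 in these libraries, against 0.0423 to 0.118 in the unmarked ones. The TMM factors were 0.7866 in the library labelled HKII+/- replicate 11 and 0.76 in HKII+/+ replicate 13. In the unmarked libraries they were 0.9924 to 1.0933. A lower factor raises every CPM of a library, so the counts of members above and below 2-fold depend on this scaling.

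The split ran through each complex, with members of 1 enzyme on both sides. Cox7b, a small subunit of complex IV, had 20.2 CPM in the library labelled HKII+/- replicate 11 and 78.4 CPM in HKII+/+ replicate 13, against 366 to 472 CPM in the unmarked libraries. Uqcrb, a small subunit of complex III, had 20.3 and 58.2 CPM against 306 to 391 CPM. Both were far below every unmarked library. Cox4i1 had 3215 and 3649 CPM against 1170 to 1613 CPM, and Atp5e, at 1.48 and 1.84 above its mean on the log2 scale, was also high in both. Cox5a and Cox5b, both subunits of complex IV, went opposite ways: Cox5a had 69.7 and 187 CPM against 538 to 702 CPM, and Cox5b had 941 and 835 CPM against 339 to 457 CPM.

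The marked libraries resembled each other in this. Across the 37 members the deviations of the 2 libraries had a Pearson correlation of 0.98, and 31 of 37 had the same sign; both deviations are taken from the same unmarked means, and over all 14107 genes the correlation was 0.89. Low members tended to have low transcript GC content: the Spearman correlation of deviation with GC was 0.49 and 0.50 over the 37 members. In the unmarked libraries, where deviations were far smaller, it ran from -0.61 (HKII+/+ replicate 21) to 0.64 (HKII+/+ replicate 17) over the members, so its size does not set the marked libraries apart. Over the genes with a GC value (95.5% of those tested) it was 0.64 and 0.67 in the marked libraries, against -0.41 to 0.24 in the unmarked ones. Cycs, with the lowest GC of the members at 40.8%, did not follow this, with deviations of 0.01 and 0.48. Cox5a and Cox5b both had 49.0% GC. The library labelled HKII+/- replicate 11 also held 1261 CPM of 5 white fat markers and 280 CPM of 6 airway epithelium markers in sum, against 162.5 and 1.7 CPM or less in the other 11 libraries. The part of GC content and of these other tissues in the shifts was not tested beyond these values.

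**Figure D5:**
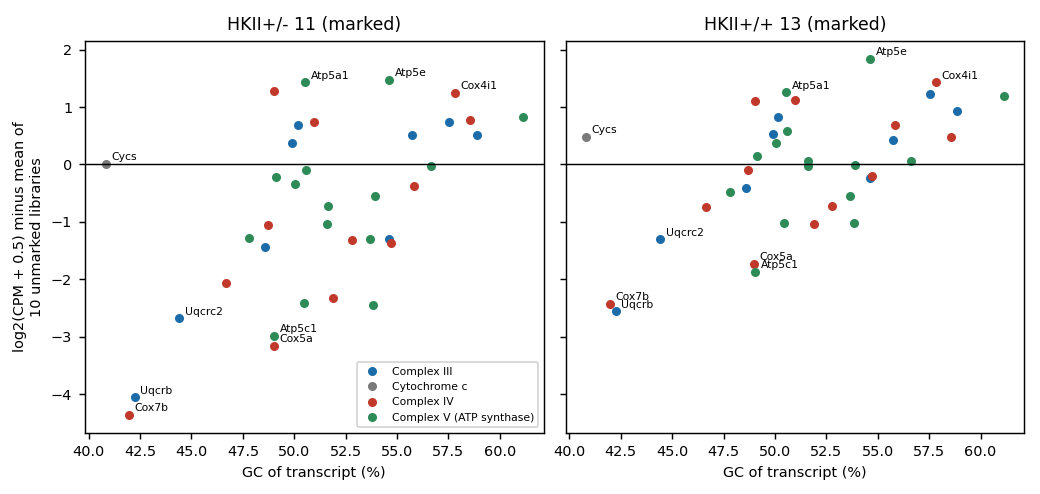
GC content of the transcript in percent (horizontal) and log2(CPM + 0.5) minus the mean of the 10 unmarked libraries (vertical) for the 37 genes, in the 2 marked libraries. Cox7b and Uqcrb, with 42.0% and 42.2% GC, are lowest in both panels, Atp5e, Cox4i1 and Atp5a1 are among the highest, and Cycs lies apart.

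Genes that assemble these complexes, or form them in other tissues, also had no called member. With 10 libraries, 0 of 5 tested assembly factors of complex III, 0 of 21 of complex IV and 0 of 3 of complex V were called, and 0 were at an unadjusted p below 0.05. Lower in HKII+/- were 4, 12 and 3 of them, with medians of -0.02, -0.03 and -0.03. Taco1, which activates translation of a mitochondrially encoded complex IV subunit, measured 48.6 to 57.4 CPM (median 53.6) in HKII+/- and 55.1 to 59.7 CPM (median 55.7) in HKII+/+, with a log2 fold change of -0.09 (SE 0.05, unadjusted p = 0.0909 in edgeR). Bcs1l, which inserts the Rieske protein into complex III, had -0.01 and Uqcc1 -0.02. Cox10, which makes heme for complex IV, had -0.05, and the ATP synthase chaperones Atpaf1 and Atpaf2 had -0.03 and -0.01.

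Of 5 other subunits, 3 were higher and 2 lower with 10 libraries, and 0 were called. Atpif1, which inhibits ATP hydrolysis by ATP synthase, had the largest difference, with 68.9 to 104 CPM (median 78.4) in HKII+/- and 64.9 to 82.1 CPM (median 71.1) in HKII+/+. These overlap, and its log2 fold change was 0.21 (SE 0.11, unadjusted p = 0.0864, adjusted p = 0.9999 in edgeR). Atp5s had a log2 fold change of -0.04 and 2010107E04Rik of 5.09e-05. Among other isoforms, Cox6a1 had -0.03, Cox4i2 0.12 and Cox6b2 -0.25 (SE 0.19), the last at 1.20 to 2.24 CPM. Cox7a2l and Higd1a, known for their part in joining complexes III and IV into supercomplexes, had -0.01 and -0.05. In the library labelled HKII+/- replicate 11 and in HKII+/+ replicate 13, Cox7a2l had 516 and 381 CPM against 118 to 136 CPM in the unmarked libraries.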

How the data were processed

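Poly(A) RNA of 12 hearts was read as 100-nt single-end reads, per the labels' protocols. STAR 2.4.0, featureCounts 1.4.4 and the build GRCm38 (mm10) are listed in the submitters' processing notes. The authors deposited a whole-number count for each gene symbol, with no normalization. The strand setting was not given in the sources used here, nor was the annotation release.

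Genotypes came from the titles. Counts were fitted over the whole table with edgeR 4.0.16 (glmQLFit and glmQLFTest, TMM factors, filterByExpr with a minimum count of 10, Benjamini-Hochberg adjustment at 0.05) in R 4.3.3, with 12 libraries and with the 10 unmarked ones. The fit was first tested on simulated counts. Intervals are 95%. CPM use the TMM-scaled total, with 0.5 added before logs. Isoform ratios (0.5 added to counts) were compared by exact two-sided permutation over all splits. Exon lengths, transcript GC content and shared 100-base windows came from GENCODE vM21. No pair of libraries of a genotype looked like 1 library deposited again (lowest chi-square per degree of freedom 7.03 over 30 pairs). Labels name separate samples, and p-values measure the spread between these samples, which may be technical in part.

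Alternatives were other scaling factors, no filter, DESeq2 1.42.0, limma 3.58.1 (voom with quality weights), an atrial covariate (mean log2 CPM of the atrial markers), another pseudocount and leaving out libraries. Named were Hk2, both genes of each isoform pair, the members highest and lowest per length in each complex, the 5 with the smallest p in each set of libraries, the 3 steadiest and 3 most variable, and the 2 of each further list with the smallest p with 12 libraries. Other genes given with values were chosen after their values were seen. The members and lists were themselves chosen with earlier results of these data known.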

Additional observations from a re-analysis of the deposited data

Results flagged for a closer look

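Within a genotype, the highest or lowest of the 6 libraries was set apart when its gap to the next, divided by the whole range, exceeded 0.625 (Dixon's rule). Of 84 groups of values examined, 42 met this rule, 20 for the library labelled HKII+/- replicate 11, 21 for HKII+/+ replicate 13 and 1 for another library. Chance alone sets apart about 1 in 20 groups, and groups of the same library are not independent. Both marked libraries were known to stand apart before the rule was applied, so these counts are not separate evidence about them.

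In the library labelled HKII+/- replicate 11, values above the other HKII+/- libraries were Hk2 at 568, Cox6a1 at 661, Cox8a at 119, Cox4i1 at 3215, Atpaf1 at 118 and Cox7a2l at 516 CPM. Values below them were Cox7a2 at 38.6, Atp5g3 at 235, Atp5b at 3671, Uqcrfs1 at 294, 2010107E04Rik at 21.2, Atp5s at 8.97 and Bcs1l at 13.1 CPM. Log2 count ratios that lay apart in the same library were Cox6a2 over Cox6a1 at -0.90, Cox7a1 over Cox7a2 at 2.03, Cox8b over Cox8a at 0.87, Cox4i1 over Cox4i2 at 8.92, Atp5g1 over Atp5g3 at 0.52 and Atp5g2 over Atp5g3 at -2.17. The median deviation of complex IV genes there was -1.18 on the log2 scale.

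In HKII+/+ replicate 13, values above the other HKII+/+ libraries were Cox6a1 at 291, Cox8b at 458, Cox8a at 96.0, Cox4i1 at 3649, Cox6b1 at 716, Uqcrq at 658, Uqcc1 at 329, Taco1 at 74.8, Atpaf1 at 132 and Cox7a2l at 381 CPM. Values below them were Cox7a2 at 95.5, Atp5g3 at 620, Uqcrfs1 at 593, Atp5s at 9.97 and Bcs1l at 20.5 CPM. Log2 count ratios that lay apart were Cox6a2 over Cox6a1 at 0.87, Cox7a1 over Cox7a2 at 1.89, Cox6b1 over Cox6b2 at 9.89, Atp5g1 over Atp5g3 at 0.13 and Atp5g2 over Atp5g3 at -3.49. The median deviation of complex III genes was 0.42.

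Outside the marked pair, Cox4i2 was lowest in HKII+/- replicate 12 at 4.96 CPM, against 6.04 to 6.64 CPM in the other HKII+/- libraries.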

How the results depend on the processing

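The count of called members was 0 under every setting run, with 12 and with 10 libraries. With 12 libraries, 29 members were lower in HKII+/-, and without both marked libraries 13. With 10 libraries, 13 were lower, against 25 under limma voom with quality weights, 35 with the atrial covariate and 35 without HKII+/- replicates 19 and 22, the last chosen after seeing the data. Leaving out each library gave 0 called members, 17 to 33 lower members (median log2 fold change -0.13 to 0.01) with 12 libraries and 2 to 30 (median -0.03 to 0.06) with 10. The 2 isoform ratios with another sign without both marked libraries were Cox6a2 over Cox6a1 (0.083) and Cox8b over Cox8a (0.11). Leaving out each library moved the 12-library ratio differences from -0.65 to 0.50 (Cox6a2 over Cox6a1), -0.091 to 0.21 (Cox7a1 over Cox7a2), -0.21 to 0.062 (Cox8b over Cox8a), -0.23 to 0.067 (Cox4i1 over Cox4i2), -0.18 to 0.54 (Cox6b1 over Cox6b2), -0.16 to 0.24 (Atp5g1 over Atp5g3) and -0.14 to 0.44 (Atp5g2 over Atp5g3). With 12 libraries, log2 fold changes of another sign were -0.040 for Atp5l and -0.13 for Cox6a2 with the atrial covariate, and for Cox8a -0.11 under voom and -0.074 without both marked libraries. Leaving out each library gave -0.16 to 0.12 for Cox8a and -0.079 to 0.17 for Cox6a2. With 10 libraries, Cox6a2 was at -0.040 with the atrial covariate. The cause of these changes was not tested. No paired analysis was possible because no replicate number occurs in both genotypes. Depth limits Cox6b2 most, at 2.24 CPM or less.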

Other observations

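Genes were compared with Cyc1 by Pearson correlation of CPM over the 10 unmarked libraries, among 10446 genes with a mean of at least 5 CPM, and those named here were chosen after their values were seen. The most alike were Cops8 (0.98), Abcf1 (0.97), Dohh (0.96), Pitrm1 (0.95), Rps9 (0.92) and Nfyc (0.91), given as a description over libraries that differ in depth and composition. They lie on 6 chromosomes, none of them that of Cyc1. The 6 were picked for correlation with Cyc1 over these same 10 libraries, so sharing its lowest libraries is not a separate result. All 6 had their 3 lowest values in HKII+/+ replicates 14, 15 and 21, as Cyc1 did. Cops8, a subunit of the COP9 signalosome, measured 80.7, 85.6 and 92.6 CPM there and 101 to 122 CPM in the other 7 unmarked libraries, and Rps9, a ribosomal protein, 227, 233 and 244 CPM against 277 to 379 CPM.

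The genes next to Cyc1 on chromosome 15 did not share this pattern. Exosc4, Gpaa1, Sharpin and Maf1 had correlations of 0.41, 0.36, 0.19 and 0.38 with Cyc1 and log2 fold changes of 0.01, 0.01, -0.04 and -0.00252 with 10 libraries.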
